A study of Mus musculus with 16 samples.

Results

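A set of 10 genes that mark the endothelial cells of the liver was followed through tumor and peri-tumor liver of HrasG12V mice. They form 2 classes of known markers. The rule that lists them names no measured value, but it was set with earlier results of these data known. The 6 sinusoidal members were Stab1, Stab2, Lyve1, Clec4g, Fcgr2b and Oit3, and the 4 vascular members were Cd34, Plvap, Vwf and Pecam1. These 10 genes, of 54838 in the deposited table, were all matched by symbol, and all 10 passed the filter on low counts.

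The 16 RNA-seq libraries came from 8 mice, all given as HrasG12V, an activated form of the Ras oncogene. A tumor and surrounding liver (peri-tumor tissue) were sequenced from each animal, of which 4 were controls and 4 were fed a decoction of traditional Chinese medicine (TCM). The 4 groups of tissue and treatment thus have 4 libraries apiece. All libraries carry the label of 3 months, without saying whether this is an age or a length of treatment. Ras-Tg mice and mice induced with DEN, a liver carcinogen, are named in the same protocol line, and it does not say if these 8 received DEN. Neither the promoter of the transgene nor the make-up and dose of the decoction is stated in the labels. The series text gives the aim as testing the decoction against liver tumors and looking for its mechanism in the RNA of both tissues.

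Liver sinusoids are capillaries lined by a fenestrated endothelium that has no organized basement membrane and takes up waste macromolecules from blood through scavenger receptors. Stab1, Stab2, Lyve1, Clec4g and Fcgr2b encode such surface receptors, and Oit3 is known as a marker of these cells. When sinusoids capillarize, as in chronic liver disease and in the vessels of hepatocellular carcinoma, the endothelium loses these receptors and gains Cd34, Plvap, Vwf and a basement membrane, which are features of capillaries and large vessels elsewhere. These statements are background and not results of these data.

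In control mice Clec4g, Stab2 and Fcgr2b fell in tumor tissue and Cd34, Pecam1 and Plvap rose. In TCM mice Cd34, Pecam1 and Plvap rose too, Clec4g fell and so did the vascular member Vwf. The other 5 sinusoidal members were not called there, at log2 fold changes of -0.50 to 0.79. Cd34 showed the largest fitted change of the 10 members in both treatments, 7.44-fold higher in control tumors and 6.33-fold higher in TCM tumors than in peri-tumor tissue. Stab1, Oit3 and Lyve1 were called by edgeR in no comparison. Between treatments edgeR called a single member, Vwf, which was 2.24-fold lower in TCM tumors than in control tumors, while DESeq2 and limma-voom called Vwf there and also Clec4g, Fcgr2b and Stab2 in peri-tumor tissue. In bulk tissue, fewer cells of a type and less RNA per cell cannot be told apart, and this holds for every value below. A pair of libraries stood apart for several members, control peri-tumor library 1 with low values of Stab1 and most other members and TCM tumor library 4 with the highest Cd34, Plvap and Pecam1 and the lowest values of all 6 sinusoidal members in its group. Without the first, the 6 calls in control mice stayed, with Clec4g at -1.87, Stab2 at -1.05, Fcgr2b at -0.96, Cd34 at 2.94, Pecam1 at 0.52 and Plvap at 0.43 (log2 fold change). Without the second, the 5 calls in TCM mice stayed, with Clec4g at -0.62, Cd34 at 2.19, Pecam1 at 0.65, Plvap at 0.38 and Vwf at -0.70. Other settings ended some calls: with the mouse as a block Fcgr2b in control and Clec4g in TCM mice were not called (adjusted p = 0.0513 and 0.0566, edgeR), and on leaving out single libraries or a mouse Fcgr2b and Pecam1 in control and Clec4g and Vwf in TCM mice each lost theirs, as given beside each.

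Stretches upstream of 3 members are shown so that their regulatory letters can be compared: Clec4g, which fell in tumors, Stab1, which was not called, and Cd34, which rose. Each is the 250 bases before the RefSeq gene start on the gene's own strand (GRCm38.p6), 5′ to 3′, and capitals mark CAGGAA or its reverse complement TTCCTG, a form of the motif bound by ETS factors, the family that includes the endothelial regulator Erg. The windows are at chr8:3720652-3720901 (minus strand), chr14:31168642-31168891 (minus strand) and chr1:194938571-194938820 (plus strand).
Clec4g: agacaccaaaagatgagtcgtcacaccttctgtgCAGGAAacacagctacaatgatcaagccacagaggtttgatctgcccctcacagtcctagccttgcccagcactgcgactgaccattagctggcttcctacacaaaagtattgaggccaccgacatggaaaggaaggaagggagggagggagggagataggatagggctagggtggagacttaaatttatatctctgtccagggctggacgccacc
Stab1: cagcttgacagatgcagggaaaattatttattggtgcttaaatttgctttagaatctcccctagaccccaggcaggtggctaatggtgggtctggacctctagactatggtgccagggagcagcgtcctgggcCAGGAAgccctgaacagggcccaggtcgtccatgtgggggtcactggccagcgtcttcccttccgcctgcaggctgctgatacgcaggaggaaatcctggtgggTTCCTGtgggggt
Cd34: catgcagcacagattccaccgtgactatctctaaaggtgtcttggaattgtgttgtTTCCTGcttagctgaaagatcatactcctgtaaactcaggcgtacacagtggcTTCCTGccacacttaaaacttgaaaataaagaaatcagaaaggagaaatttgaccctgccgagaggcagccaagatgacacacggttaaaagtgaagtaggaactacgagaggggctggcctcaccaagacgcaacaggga
The reference table held promoters for 5 of the 10 members, which are these 3 with Stab2 and Fcgr2b. CAGGAA was found on either strand in 4 of the 5 (Clec4g, Stab1, Stab2 and Cd34), against 25.7% of 32851 promoters of the same length. In Clec4g the match began 216 bases before the start, in Stab2 138 bases, in Stab1 117 and 13 bases and in Cd34 194 and 141 bases. The stricter ETS form CCGGAAG (6.91% of all promoters), the GATA motif AGATAA (9.99%) and the SOX motif ACAATGG (3.02%) matched in none of the 5, and the KLF motif CACCC (52% of all promoters) matched in Fcgr2b and Clec4g. CAGGAA and CCGGAAG share the core GGAA but cannot match at the same place, and a match describes letters, not binding.

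Levels of different genes were compared as deposited FPKM (counts per gene length and library total). Plvap, which forms the diaphragms of fenestrae and caveolae, had the highest FPKM of the 10 members in every group, with means of 23.6 ± 2.54 (SD, n = 4) in peri-tumor tissue and 35.6 ± 4.07 in tumors of control mice, and of 19.6 ± 2.53 and 31.8 ± 8.55 in those of TCM mice. Clec4g, a C-type lectin also known as LSECtin, was next in control peri-tumor tissue, where its range overlapped that of Plvap, and in control tumor tissue and TCM peri-tumor tissue. In TCM tumors its mean stood below that of Oit3, with overlapping ranges. The lowest levels belonged to Vwf and Cd34. Cd34 had 0.142 ± 0.0353 FPKM in control peri-tumor and 0.227 ± 0.0244 in TCM peri-tumor tissue, below Vwf with no overlap in either. In control tumors Cd34 (1.15 ± 0.336 FPKM) and Vwf (0.74 ± 0.173 FPKM) overlapped, and in TCM tumors Cd34 (1.6 ± 0.931 FPKM) stood above Vwf (0.316 ± 0.0496 FPKM) with no overlap. In the middle of the order, from Oit3 to Pecam1, the ranges of most neighbors overlapped, and in control peri-tumor tissue Oit3, Fcgr2b, Stab2, Lyve1, Stab1 and Pecam1 each overlapped the next.

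**Figure D1:**
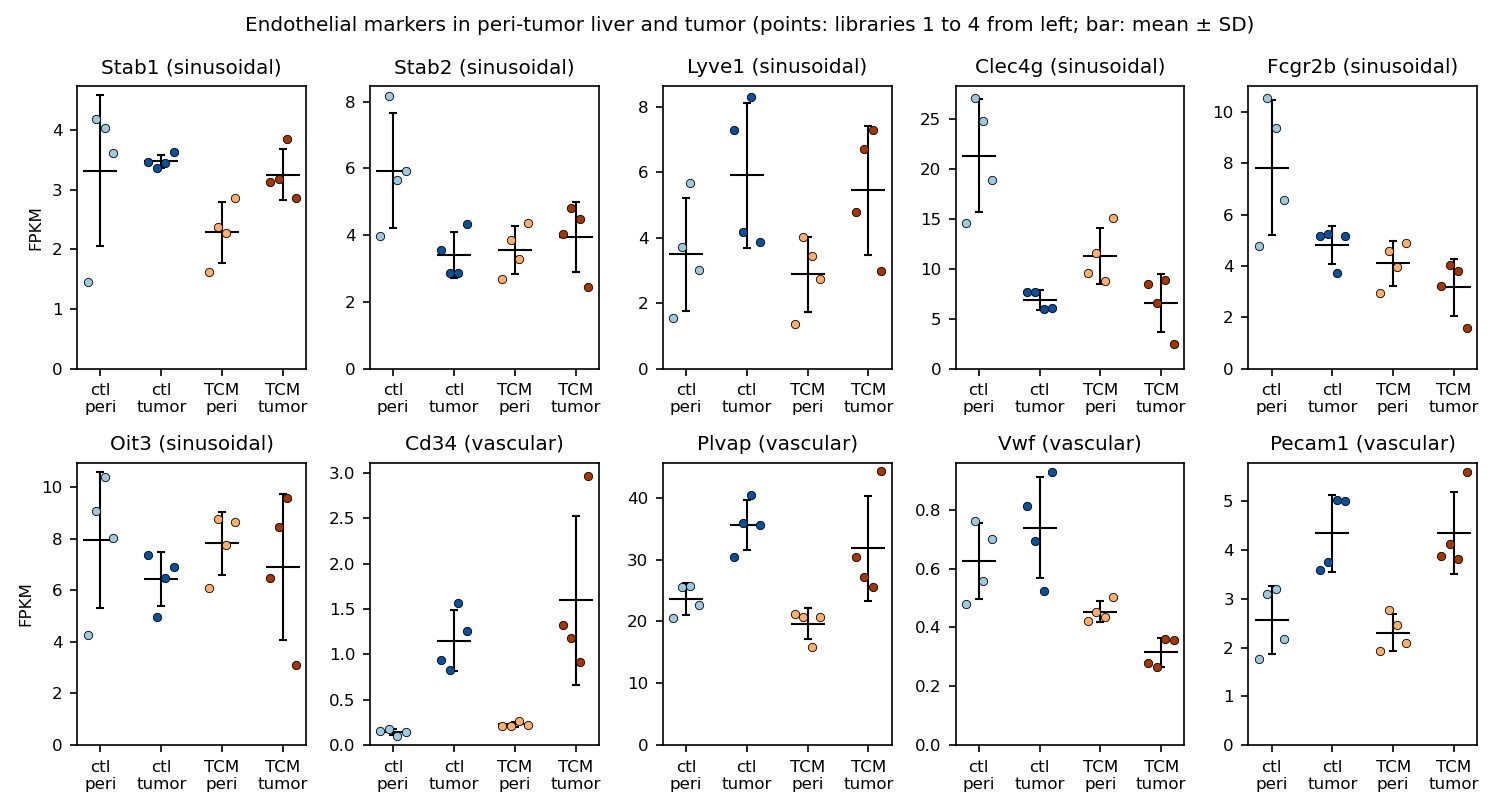
Deposited FPKM of the 10 members (y axis, each panel with its own scale from 0) in the 4 groups (x axis, ctl is control), with 1 point per library and the mean ± SD of 4 libraries. Cd34 is at most 0.263 FPKM in the 8 peri-tumor libraries and at least 0.824 FPKM in the 8 tumor libraries, and the fourth TCM tumor library stands apart for Cd34 and Plvap.

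Among the sinusoidal members Clec4g had the largest fitted change between tissues in control mice. There it had 57.9, 99.2, 96.7 and 77 CPM (counts scaled to a common library size with TMM factors) in the peri-tumor libraries of mice 1 to 4 and 28.8, 28.6, 21.1 and 21 CPM in their tumors. No tumor library reached the lowest peri-tumor library. The fitted fall was -1.73 ± 0.30 (log2 fold change ± SE, adjusted p = 0.000262, edgeR quasi-likelihood test with Benjamini-Hochberg adjustment), or 3.32-fold. In TCM mice Clec4g had 39.1, 45.7, 40.6 and 60.4 CPM in peri-tumor tissue and 30.3, 24.6, 35.5 and 9.38 CPM in tumors, again with no overlap. The fall there was -0.90 ± 0.30 (adjusted p = 0.0293), lower in 4 of 4 mice, and mouse 4 had much the lowest tumor value. Without that tumor library it was -0.62 (adjusted p = 0.0411), smaller in size than the 1.01 of Lyve1, which was not called (adjusted p = 0.0828). The call in TCM mice was lost with the mouse as a block (adjusted p = 0.0566), with a fit of the groups compared alone (0.068) and on leaving out TCM peri-tumor library 2 or 4 or TCM tumor library 2 (0.0513, 0.089 and 0.062).

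Stab2, a scavenger receptor that clears hyaluronan, had 41.7, 79.1, 58.2 and 63.5 CPM in control peri-tumor libraries and 35.1, 28, 27.1 and 39.4 CPM in control tumors. All 4 tumors were below their own peri-tumor tissue, and the groups did not overlap. The fall was -0.90 ± 0.22 (adjusted p = 0.00411). In TCM mice the peri-tumor values of 29, 39.9, 39.9 and 46 CPM and the tumor values of 37.9, 47.9, 47.6 and 24.3 CPM overlapped. Stab2 was higher in tumor in 3 of those 4 mice and lower in mouse 4, and the fitted difference was 0.03 ± 0.22 (adjusted p = 0.944). The tumor effect, TCM minus control, differed by 0.93 ± 0.32 (adjusted p = 0.142), so a difference in response was not called.

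Fcgr2b, an inhibitory Fc receptor that clears immune complexes in sinusoids, had 37.1, 75.6, 71.5 and 52.4 CPM in control peri-tumor tissue and 37.7, 38, 25.9 and 34.8 CPM in control tumors. Mouse 1 was the one animal without a lower tumor value, and the groups overlapped. The fall of -0.79 ± 0.27 was called (adjusted p = 0.0257), but not with the mouse as a block (0.0513), nor without control peri-tumor library 2 (0.0715) or 3 (0.0741) or control tumor library 3 (0.0681). In TCM mice the difference was -0.50 ± 0.27 (adjusted p = 0.177), with lower values in the tumor of 4 of 4 mice. Of the sequence of Fcgr2b, 7.12% of its short words also occur in other genes, among them Fcgr3, and for Cd34 this share was 1.09% and for the other 8 members 0%.

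Oit3, Lyve1 and Stab1 were not called in either treatment. Oit3 had 13.1 to 31.4 CPM in control peri-tumor tissue and 14.3 to 21.3 in control tumors, a difference of -0.41 ± 0.30 (adjusted p = 0.289), and -0.30 ± 0.30 in TCM mice (adjusted p = 0.473). Lyve1, a hyaluronan receptor shared by sinusoidal and lymphatic endothelium and some macrophages, differed in the other direction, with 0.66 ± 0.41 in control (adjusted p = 0.204) and 0.79 ± 0.41 in TCM mice (adjusted p = 0.156). Its CPM was higher in tumor than in peri-tumor tissue in 8 of 8 mice, but mice differed widely, from 5.41 to 19.5 CPM in control peri-tumor and 11.7 to 26 CPM in control tumors. Stab1, which is found on sinusoidal endothelium and on macrophages, had 24.1, 63.8, 65.3 and 61.2 CPM in control peri-tumor libraries and 54.1, 52.1, 51.4 and 52.1 CPM in control tumors. Its difference was -0.03 ± 0.24 in control (adjusted p = 0.932) and 0.38 ± 0.24 in TCM mice (adjusted p = 0.256).

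Cd34, a sialomucin of capillary endothelium and of blood progenitors, had 1.53, 1.69, 0.954 and 1.46 CPM in control peri-tumor tissue, from 15 to 28 counts a library, and 9, 7.83, 14.3 and 11 CPM in control tumors. Every tumor was far above every peri-tumor library. The rise was 2.90 ± 0.35 (adjusted p = 8.35e-06). In TCM mice Cd34 had 2.18, 2.16, 3.1 and 2.24 CPM in peri-tumor tissue and 12.1, 11.4, 9.38 and 28.5 CPM in tumors, with mouse 4 the highest. The rise there was 2.66 ± 0.33 (adjusted p = 2.45e-05), and 2.19 without the tumor library of mouse 4 (adjusted p = 1.12e-05).

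Plvap had 42, 48.4, 51.8 and 47.6 CPM in control peri-tumor libraries and 58.9, 69, 74.6 and 63.3 CPM in control tumors. All tumors exceeded all peri-tumor libraries, by 0.49 ± 0.14 on the log2 scale (adjusted p = 0.0117). In TCM mice it had 44.6, 42.2, 37.8 and 42.7 CPM in peri-tumor tissue and 56, 52.7, 52.9 and 85.8 CPM in tumors, a rise of 0.56 ± 0.14 (adjusted p = 0.0063), and of 0.38 without the tumor library of mouse 4 (adjusted p = 0.0139). Plvap lies over the gene Gtpbp3 on the opposite strand, which had 119 to 232 counts a library against 500 to 1254 for Plvap, and Stab1 lies over Nt5dc2, which had 38 to 171. The library kit keeps the strand, and no label says whether the counting used it.

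Pecam1, the junctional adhesion molecule CD31 of all endothelium, had 16.4, 26.4, 29 and 20.7 CPM in control peri-tumor tissue and 31.3, 32.5, 41.8 and 40.2 CPM in control tumors. The groups did not overlap, and the rise was 0.66 ± 0.19 (adjusted p = 0.00961), which was not called without control mouse 4 (adjusted p = 0.0693). In TCM mice it rose by 0.78 ± 0.19 (adjusted p = 0.00461), from 18.2 to 26.4 CPM in peri-tumor libraries to 32.4 to 49 CPM in tumors. Cd34, Plvap and Pecam1 were each higher in tumor in 8 of 8 mice.

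Vwf, the large glycoprotein that tethers platelets and is stored in endothelium and megakaryocytes, went another way. In control mice its 9.81, 14.4, 11.2 and 14.7 CPM in peri-tumor tissue and 15.7, 13.3, 9.64 and 16.5 CPM in tumors overlapped, with a difference of 0.14 ± 0.18 (adjusted p = 0.578). In TCM mice it had 8.86, 9.18, 10.4 and 10.4 CPM in peri-tumor tissue and 5.17, 5.15, 7.43 and 6.91 CPM in tumors. Every TCM tumor was below every TCM peri-tumor library, a fall of -0.65 ± 0.19 (adjusted p = 0.0141) that was not called without TCM tumor library 1 (adjusted p = 0.0502). The tumor effect, TCM minus control, differed by -0.79 ± 0.26 (adjusted p = 0.133).

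**Figure D2:**
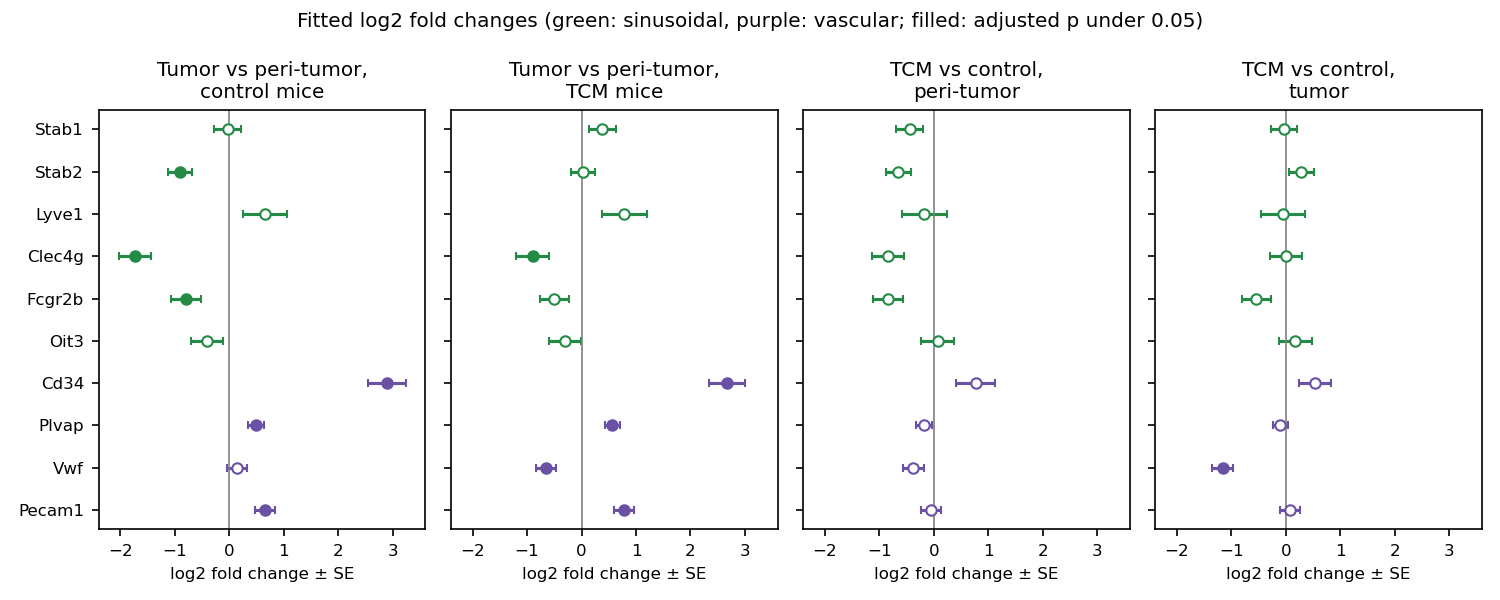
Fitted log2 fold change ± SE (x axis) of each member (y axis) in 4 comparisons, with green for sinusoidal and purple for vascular members and filled points for an adjusted p under 0.05. Cd34 lies farthest from 0 for tumor against peri-tumor tissue in both treatments (2.90 and 2.66), and Vwf is the one filled point between treatments (-1.16).

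Read against all genes, these counts were as follows. In control mice 6 of 10 members were called, where 43.2% of the 14865 genes tested were called, and 5 of 10 did not overlap between groups, where 38.9% of all genes did not. Of the 6 sinusoidal members 0 rose and 3 fell, beside 22% of all genes called higher and 21.2% called lower, and of the 4 vascular members 3 rose and 0 fell. The median log2 fold change was -0.60 over the sinusoidal and 0.57 over the vascular members, beside 0.00 over all genes. In TCM mice 5 of 10 members were called, where 32.9% of all genes were called, and the same 5 did not overlap, where 33.9% of all genes did not. There 0 sinusoidal members rose and 1 fell, and 3 vascular members rose and 1 fell, beside 17.3% of all genes called higher and 15.6% called lower. The medians were -0.14 over the sinusoidal and 0.67 over the vascular members. A share of called members near that of all genes is no result about the members. DESeq2 and limma-voom called the same number of members, 6 in control mice, where they called 45% and 48.2% of all genes, and 5 in TCM mice, where they called 35.7% and 35.3%.

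The comparisons of treatments within a tissue share libraries with the comparisons of tissues. In peri-tumor tissue 0 of 10 members were called by edgeR between TCM and control mice, where 14.1% of all genes were called. At an unadjusted p under 0.05 by edgeR there were 4 (Cd34, Clec4g, Fcgr2b and Stab2). The share of all genes at that looser threshold is not given, so this count is no result about the members. DESeq2 and limma-voom each called 3, namely Clec4g, Fcgr2b and Stab2, where these tools called 18.9% and 22.5% of all genes. Fcgr2b differed by -0.84 ± 0.27 (adjusted p = 0.0503, by edgeR), with 23.5, 35.3, 35.6 and 38.2 CPM in TCM against the control values above. Clec4g differed by -0.83 ± 0.29 (adjusted p = 0.0693) and Stab2 by -0.65 ± 0.22 (adjusted p = 0.0647), each with ranges that overlapped. These 3 receptors thus had lower means in TCM peri-tumor tissue, and whether they passed the threshold turned on the tool and on single libraries. Without control peri-tumor library 1, which had the lowest CPM of its group for every member but Cd34, Fcgr2b, Stab2 and Stab1 were called (log2 fold change -1.005, -0.79 and -0.69). Cd34 differed by 0.77 ± 0.36 (adjusted p = 0.166, by edgeR), and all 4 TCM peri-tumor libraries were above all 4 control ones, at 32 to 41 counts against 15 to 28. Of all genes 18% did not overlap between these groups, with 9.12% higher in TCM mice.

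In tumor tissue 1 of 10 members was called between treatments, where 7.28% of all genes were called and 2.72% were called lower. This member was Vwf, at 5.15 to 7.43 CPM in TCM tumors and 9.64 to 16.5 CPM in control tumors with no overlap. The fall was -1.16 ± 0.19 (adjusted p = 0.00367, by edgeR). Of all genes 15.9% did not overlap between these groups, with 7.04% lower in TCM tumors. DESeq2 and limma-voom also called Vwf, where they called 12.1% and 14.8% of all genes, and the call held with each library left out in turn. Platelet and megakaryocyte genes, which share Vwf with endothelium, had a summed level of 3.47 to 11.3 CPM over 8 markers in control tumors and 1.8 to 2.53 CPM in TCM tumors. Of these markers 3 passed the filter, 1 fell (Itga2b, -1.24 ± 0.31, adjusted p = 0.0255) and Gp6 was at 0 in both tumor groups, and their part in the difference of Vwf was not tested. The other 9 members had adjusted p values of 0.233 (Fcgr2b) to 0.998 (Clec4g) between treatments in tumors. Clec4g had the same mean in both, 24.9 ± 4.42 CPM in control and 24.9 ± 11.3 CPM in TCM tumors.

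When the tumor effect itself was compared between treatments, edgeR called 0 of 10 members, where 1.11% of all genes were called. At an unadjusted p under 0.05 by edgeR there were 2 (Stab2 and Vwf), again without the share of all genes at that threshold. DESeq2 and limma-voom each called 0, where they called 5.42% and 4.06% of all genes. The fall of Stab2 in control tumors and that of Vwf in TCM tumors were therefore not shown to differ between treatments. Without TCM tumor library 4 the difference was 1.14 for both Stab2 (adjusted p = 0.0532) and Clec4g (adjusted p = 0.0538).

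The balance of the classes was read within each library as the summed FPKM of the 6 sinusoidal over that of the 4 vascular members. The ratio was 1.82 ± 0.349 (SD, n = 4) in control peri-tumor tissue, with 1.34, 2.12, 2.03 and 1.79 in mice 1 to 4, and 0.749 ± 0.145 in their tumors, with 0.964, 0.686, 0.646 and 0.701. In TCM mice it was 1.42 ± 0.274 in peri-tumor tissue, with 1.02, 1.46, 1.55 and 1.64, and 0.85 ± 0.406 in tumors, with 0.84, 1.03, 1.24 and 0.291. The ratio was lower in tumor than in peri-tumor tissue of the same animal in all 8 mice, and in TCM mice the tissues overlapped between animals. Most of the summed FPKM came from Plvap and Clec4g, so the ratio follows mainly these 2. Plvap made up 31.6% ± 4.76 of the 10 members' FPKM in control peri-tumor and 48.9% ± 3.94 in control tumor tissue, and 36.3% ± 5.31 and 47.2% ± 12.1 in TCM mice. Clec4g made up 27.7% ± 1.23 and 9.5% ± 1.79 in control mice and 20.5% ± 2.68 and 9.81% ± 4.36 in TCM mice.

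**Figure D3:**
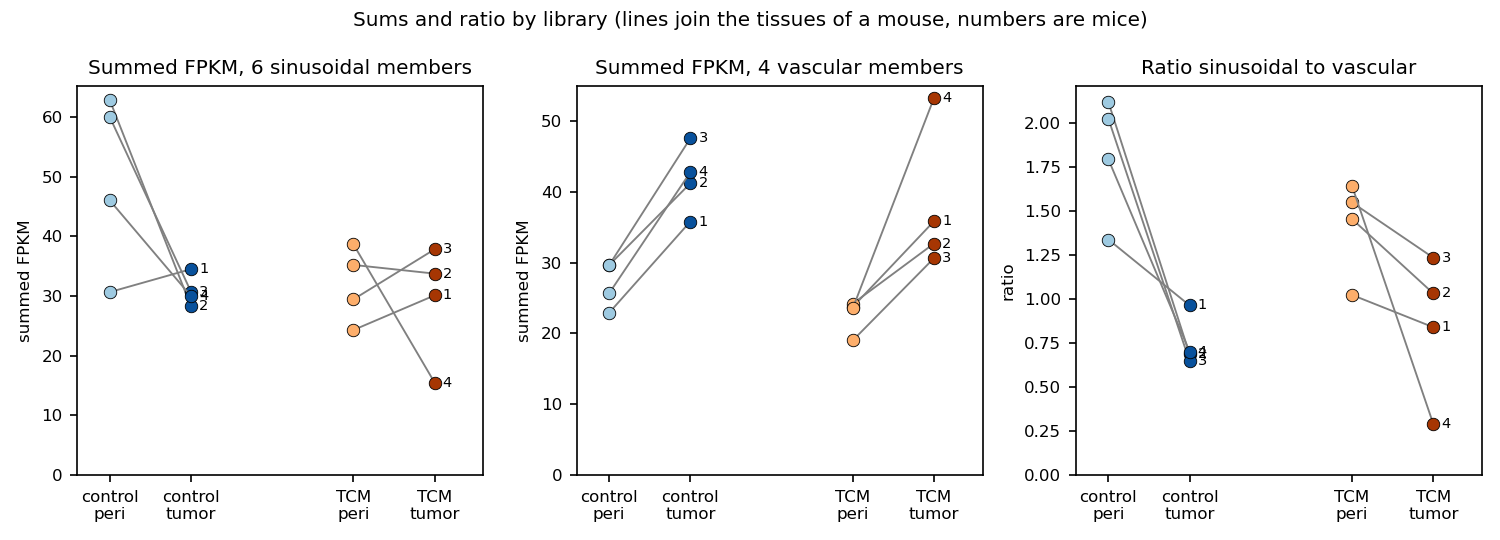
Summed FPKM of the 6 sinusoidal members, of the 4 vascular members and their ratio (y axes from 0) in each library, with lines that join peri-tumor and tumor tissue of a mouse (numbers 1 to 4). The ratio falls along all 8 lines, and TCM tumor 4 has the lowest ratio (0.291), with the lowest sinusoidal sum (15.5) and the highest vascular sum (53.2).

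Endothelial RNA as a whole was gauged by 20 pan-endothelial genes, all of which passed the filter. Cdh5, Kdr and Tek, which define endothelium, were present in every group, with Cdh5 at 5.69 to 15.7 FPKM, Kdr at 3.04 to 7.63 and Tek at 0.965 to 2.39. Over the 20 genes 4 rose and 1 fell in control tumors (median log2 fold change 0.07), and 9 rose and 1 fell in TCM tumors (median 0.63), with S1pr1, a sphingosine phosphate receptor, falling in both (-1.35 ± 0.16 and -0.59). In all 25% of the 20 genes were called in control and 50% in TCM tumors, where 43.2% and 32.9% of all genes were called. The mean log2 CPM of the 20 genes was 3.92 ± 0.406 in peri-tumor tissue and 4.08 ± 0.193 in tumors of control mice, and 3.80 ± 0.154 and 4.28 ± 0.124 in those of TCM mice. Measured against this mean in the same library, the sinusoidal members stood at 1.37 ± 0.0964 (log2) in control peri-tumor and 0.73 ± 0.236 in control tumor tissue, and at 1.06 ± 0.18 and 0.45 ± 0.611 in TCM mice. The vascular members stood at -0.25 ± 0.282 and 0.54 ± 0.103 in control mice and at -0.11 ± 0.147 and 0.16 ± 0.274 in TCM mice. This vascular mean hides unlike members, since Cd34 differed most between the tissues and Vwf was lower in TCM tumors (values below). Without TCM tumor library 4 the TCM tumor values were 0.75 for the sinusoidal and 0.03 for the vascular members. The control tissues did not overlap for either class, whereas the TCM tissues overlapped for both.

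Single members differed on this relative scale as well. Clec4g stood 2.42 ± 0.0855 above the pan-endothelial mean in control peri-tumor and 0.57 ± 0.425 above it in control tumor tissue, and Cd34 stood at -3.01 ± 0.556 and -0.65 ± 0.255. Stab1 stood at 1.73 ± 0.315 and 1.64 ± 0.2 in the same tissues. Vwf stood at -0.24 ± 0.32 and -0.28 ± 0.37 in control mice and at -0.46 ± 0.11 and -1.56 ± 0.177 in TCM mice. Plvap stood at 1.66 ± 0.287 and 1.97 ± 0.259 in control mice and at 1.60 ± 0.21 and 1.66 ± 0.286 in TCM mice. For Pecam1 the values were 0.61 ± 0.118 and 1.11 ± 0.151, then 0.70 ± 0.254 and 0.98 ± 0.172. In TCM mice Cd34 stood at -2.27 ± 0.253 and -0.43 ± 0.639. The higher vascular mean in tumors thus came mainly from Cd34.

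Other genes of both endothelial types were read from lists, which were also chosen with earlier results of these data known. Of 16 further sinusoidal genes tested, 0 rose and 7 fell in control tumors (median log2 fold change -0.57), where 21.2% of all genes were called lower. In TCM tumors 0 rose and 2 fell (median -0.32), where 15.6% of all genes were called lower, so the TCM count is near the background. Rspo3 and Wnt2, ligands by which endothelium supports zonation of hepatocytes, fell in both treatments, Rspo3 by -1.74 ± 0.29 and -1.96 ± 0.30 and Wnt2 by -2.44 ± 0.48 and -1.50 ± 0.45 (control, then TCM). Clec1b fell by -1.30 ± 0.24 and the nuclease gene Dnase1l3 by -1.23 ± 0.30 in control tumors. Of 18 further capillary and large-vessel genes tested, 10 rose and 2 fell in control tumors (median 1.36) and 9 rose and 0 fell in TCM tumors (median 1.27), where 22% and 17.3% of all genes were called higher. The arterial gap junction gene Gja5 rose by 2.50 ± 0.40 and 2.32 ± 0.39, and Cd93 by 2.23 ± 0.39 and 2.11 ± 0.39. Each of these fold changes had an adjusted p of at most 0.018. Sele, the leukocyte adhesion molecule E-selectin, is counted among those that rose, but it had 11 counts in all over the 4 control and 1 count over the 4 TCM peri-tumor libraries, so no fold is given, and its tumor levels were 1.73 and 0.783 CPM. Without Sele 9 and 8 of 17 rose.

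Genes of the basement membrane, which capillaries have and sinusoids largely lack, mostly rose. Of 10 basement membrane genes 8 rose and 1 fell in control tumors and 7 rose and 0 fell in TCM tumors. Beside this list and those that follow, 22% of all genes were called higher and 21.2% lower in control tumors. In TCM tumors 17.3% were called higher and 15.6% lower. Which cells of the bulk tissue made the basement membrane RNA was not tested. The laminin gene Lama5 rose by 4.10 ± 0.31 and 3.38 ± 0.30, Nid1 by 3.11 ± 0.36 and 3.41 ± 0.36 and the collagen gene Col4a1 by 2.08 ± 0.33 and 2.55 ± 0.33. Of 12 angiogenic ligands and tip-cell genes tested, 7 rose and 2 fell in control tumors and 7 rose and 0 fell in TCM tumors. Esm1, a tip-cell gene, rose by 3.83 ± 0.54 and 3.93 ± 0.55 and Pdgfb, which recruits pericytes, by 1.77 ± 0.27 and 2.51 ± 0.29. Vegfb fell in control tumors (-1.10 ± 0.15), and it was the one gene of all the lists called when the tumor effect was compared between treatments (0.90 ± 0.21, adjusted p = 0.0489). Of 14 genes of BMP9, ALK1 and Notch signaling, pathways that act on sinusoidal differentiation, 6 rose and 3 fell in control and 5 rose and 1 fell in TCM tumors. The ligand gene Gdf2 (BMP9) fell by -1.44 ± 0.25 and -1.25 ± 0.24, whereas the target gene Id1 rose by 2.32 ± 0.23 and 1.27 ± 0.22.

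**Figure D4:**
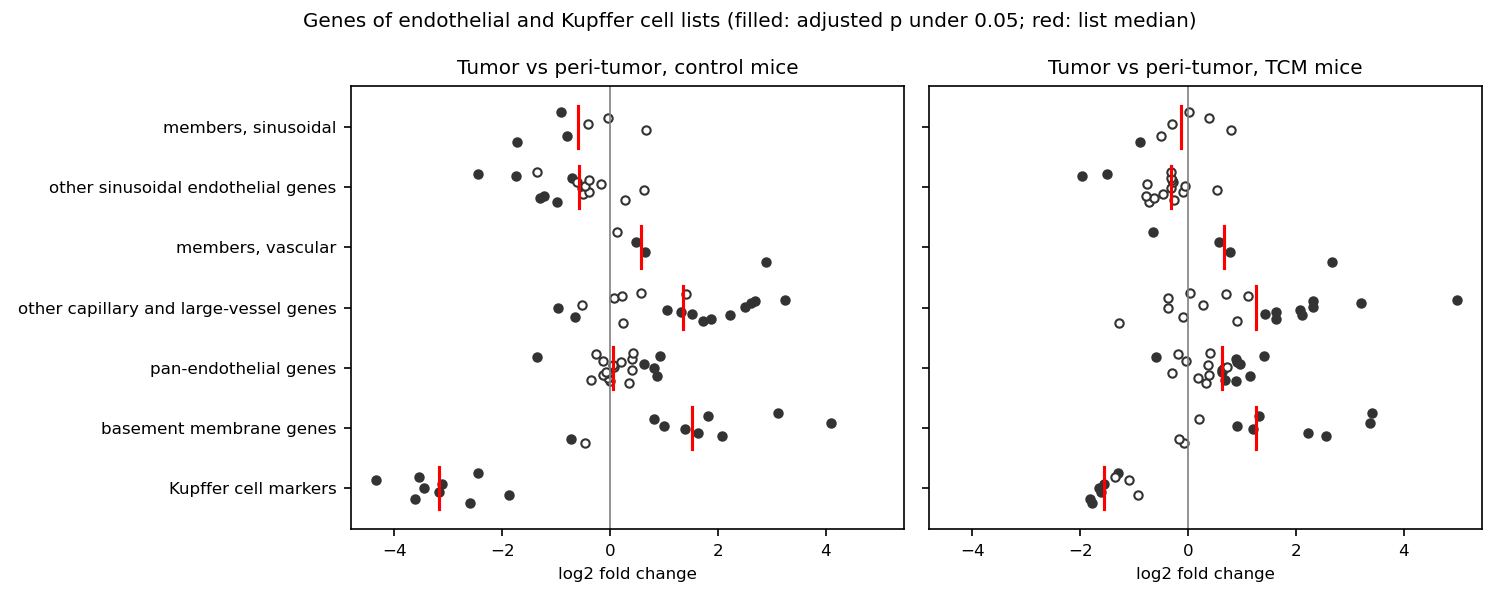
Log2 fold change of tumor against peri-tumor tissue (x axis) for the genes of 7 lists (y axis), with filled points for an adjusted p under 0.05 and a red line at the list median. The median lies left of 0 for sinusoidal genes (-0.57 in control, -0.32 in TCM mice) and right of 0 for capillary genes (1.36 and 1.27), and all 9 Kupffer cell markers are below 0 in both treatments.

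Between treatments the further endothelial genes gave few calls. In peri-tumor tissue 1 of 16 genes of the sinusoidal list fell in TCM mice (Clec1b, -1.55 ± 0.24, adjusted p = 0.00141). There 3 of 18 capillary genes fell (Gja4, Ly6a and Sele, the last at 1 count in TCM peri-tumor tissue). Of 20 pan-endothelial genes 1 fell (Cdh5, -0.60 ± 0.19, adjusted p = 0.0426), where 7.35% of all genes were called lower. The sinusoidal and pan-endothelial counts are no higher than that share. In tumors, where 4.55% of all genes were called higher and 2.72% lower, Clec1b fell by -0.88 ± 0.25 (adjusted p = 0.044), the adhesion gene Selp by -1.44 ± 0.39 (adjusted p = 0.0364), and the tight junction gene Cldn5 rose by 0.89 ± 0.20 (adjusted p = 0.0155). Selp, like Vwf, is stored in endothelial granules and in platelets. Which cells carried the RNA of Clec1b, counted here with the sinusoidal list, was not tested.

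Markers of other cells that carry some of the members' RNA also differed between groups. Beside the counts of this paragraph, 22% of all genes were called higher and 21.2% lower in control tumors. In TCM tumors 17.3% were called higher and 15.6% lower. In TCM against control mice 7.35% were called lower in peri-tumor tissue and 2.72% in tumors. All 9 Kupffer cell markers fell in control tumors (median -3.17) and 6 of 9 in TCM tumors (median -1.56), and 6 of 9 fell in TCM against control peri-tumor tissue (median -1.51). Their summed level was 893 to 1364 CPM in peri-tumor tissue and 144 to 243 CPM in tumors of control mice, and 540 to 625 CPM and 97.5 to 321 CPM in those of TCM mice, with no marker at 0 in a whole group. Of 8 general macrophage markers 4 rose and 3 fell in control tumors (median 0.74) and 3 rose and 1 fell in TCM tumors (median 0.43), while in TCM against control mice 0 rose and 3 fell in peri-tumor tissue and 0 rose and 4 fell in tumors. Their summed level was 275 to 357 CPM in peri-tumor tissue and 201 to 299 CPM in tumors of control mice, and 143 to 206 CPM and 131 to 196 CPM in those of TCM mice. Macrophages express Fcgr2b, Stab1 and Lyve1. Deviations from the group means correlated with those of the Kupffer cell list at r of 0.72 for Clec4g, 0.58 for Fcgr2b and 0.51 for Stab2. For Oit3 r was 0.48, for Lyve1 0.13 and for Stab1 0.02, and for the vascular members -0.70 (Cd34) to -0.19 (Vwf). With the macrophage list r was -0.17 (Lyve1) to 0.38 (Stab2) for sinusoidal members. TCM tumor library 4 weighs on these values, and the part of these cells in the members' values was not tested. Of 11 stellate cell and pericyte markers tested, 4 rose and 2 fell in control tumors and 4 rose and 3 fell in TCM tumors. These are 54.5% and 63.6% called, where 43.2% and 32.9% of all genes were called. Of 4 lymphatic markers 2 were tested, and Mmrn1 fell in both treatments from 0.729 to 0.0471 CPM in control and from 0.675 to 0.124 CPM in TCM mice. Its tumor levels were near 0, at 3 counts in all over the 4 control and 8 over the 4 TCM tumor libraries. Only 2 libraries were above 0 in each tumor group. Prox1, which hepatocytes also express, was not called. For progenitors that carry Cd34, of 4 genes tested 1 rose and 1 fell in control tumors and 0 rose and 1 fell in TCM tumors. The gene that fell was Hlf in both treatments, from 69.7 to 30.8 CPM in control and from 51.6 to 24.7 CPM in TCM mice, and hepatocytes express it as well. The other 4 genes of the list summed to 9.49 to 19.4 CPM in peri-tumor tissue and 11.2 to 15.8 CPM in tumors of control mice and to 8.13 to 11.1 CPM and 8.44 to 11.7 CPM in those of TCM mice, with overlap in both, and Cd48 was the gene that rose in control tumors. B cells, which carry Fcgr2b, had a summed level of 6.93 to 13.1 CPM over 6 markers in control and 11 to 37.1 CPM in TCM libraries, with overlap. None of the 4 markers tested was called by edgeR between tissues or between treatments.

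Within groups the sinusoidal members varied together. Deviations of log2 CPM from the group means over the 16 libraries of 8 mice correlated between sinusoidal members with a median Pearson r of 0.74 (0.53 to 0.89 over 15 pairs), highest for Stab2 with Fcgr2b. Between vascular members the median was 0.30 (-0.01 to 0.59 over 6 pairs), with Vwf at -0.01 to 0.17 with the other 3 but 0.51 with Stab1 and 0.43 with Stab2, and between the classes it was -0.11 (-0.82 to 0.51 over 24 pairs), lowest for Clec4g with Cd34. These values are descriptions, since the 2 tissues of a mouse share an animal and library 4 of the TCM tumors, the lowest for the 6 sinusoidal members and the highest for Cd34, Plvap and Pecam1 in its group, weighs on them. The genes most like Stab2 among 12047 genes were Gatm (r = 0.91), Tgfbr3 (0.90), Bace2 (0.89), Fcgr2b (0.89) and Ahr (0.88), with Oit3 at rank 11. Those most like Plvap were Cygb (0.87), Rasl10b (0.85), Fndc10 (0.85), Ccdc3 (0.85) and Cmas (0.85), with Cd34 at rank 319. Cygb is counted here with the stellate cell and pericyte list. With that list r was 0.65 for Plvap, 0.23 (Vwf) to 0.48 (Pecam1) for the other vascular members and -0.32 (Clec4g) to 0.38 (Stab1) for sinusoidal members. With the pan-endothelial list r was 0.32 for Plvap, and it ran from 0.11 (Cd34) to 0.83 (Stab1) over the members. The part of stellate cells and pericytes was not tested.

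**Figure D5:**
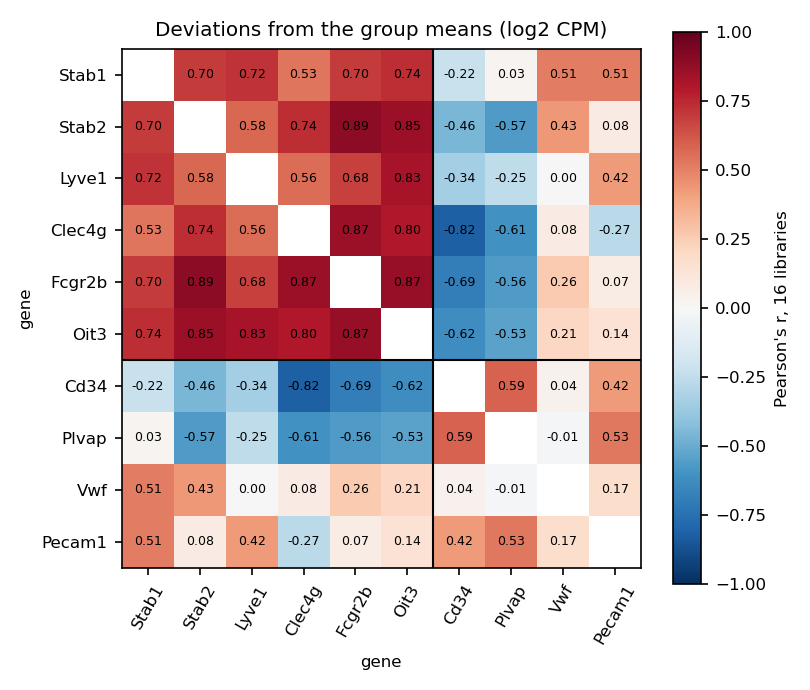
Pearson's r between members (both axes) of log2 CPM deviations from the group means over 16 libraries, with lines that part the 6 sinusoidal from the 4 vascular members. All 15 sinusoidal pairs are positive (0.53 to 0.89), and Clec4g with Cd34 is the lowest of all pairs (-0.82).

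Sequencing depth was even, at 13947483 to 16194224 counts a library. Counts of the members ran from 15 (Cd34 in a control peri-tumor library) to 1640 (Clec4g), so Cd34 in peri-tumor tissue rested on the fewest counts. Both tissues held hepatocyte RNA. The sum over 7 marker genes was 76380 to 113862 CPM in peri-tumor tissue and 114172 to 157304 CPM in tumors of control mice, with no overlap, and 100939 to 152524 CPM and 119063 to 187453 CPM in those of TCM mice, with overlap. Of the 7 genes 2 were called higher in control tumors (Alb and Apoa1) and 1 lower, with a median log2 fold change of 0.06. The one that fell was Cps1 (-1.62 ± 0.22), from 3633 to 1178 CPM with no overlap. These are 42.9% called, where 43.2% of all genes were called. Alb alone had a mean of 67378 CPM in control peri-tumor and 102479 CPM in control tumor tissue, so the sum follows mainly Alb. The part of hepatocyte RNA in the members' values was not tested. The labels name separate mice within a group, and the main fit takes both tissues of a mouse as independent libraries. Its p values measure the spread between libraries within the 4 groups, not that of differences within a mouse.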

How the data were processed

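Libraries of 16 samples were analysed, made from total RNA with a stranded mRNA kit per the labels' protocols. The deposited table holds whole-number counts per gene, unscaled by the authors per the file headers and the values, and the deposited per-library files hold the authors' FPKM, which followed the counts within 0.0058% over 11980 genes. Both mm9 and mm10 stand as builds in the submitters' processing notes. The aligner and counter were not given in the sources used here. Of 54838 genes, 115 had no symbol (at most 0.0171% of counts). Libraries of a group differed beyond sampling noise (chi-square per degree of freedom at least 16.87).

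Counts were tested with edgeR 4.0.16 in R 4.3.3 by quasi-likelihood F tests in 1 fit of 16 libraries with 4 group means, TMM factors and filterByExpr (minimum count 10), over 14865 genes and 5 comparisons. Genes with a Benjamini-Hochberg adjusted p under 0.05 were called. CPM are counts over TMM-scaled totals, and log2 CPM levels use a prior of 0.5 CPM. The script was tested on simulated data.

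Members and gene lists were chosen with earlier results of these data known. All 10 members were named, with up to 4 genes of each list by lowest p (at least 1 CPM in a group) and the 5 genes most like Stab2 and Plvap. Mmrn1 in the lymphatic list and S1pr1 in TCM tumors were named outside this rule after their values were seen, and Cdh5, Kdr and Tek as defining endothelial markers. Gene models were GENCODE M21, and promoters came from RefSeq.

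Both tissues of a mouse carry its animal code in the labels, which gives the pairing. Their deviations from the group means had r of 0.063 to 0.228 in control mice and 0.043 to 0.235 in TCM mice. Other settings were DESeq2 1.42.0, RLE factors, limma-voom (limma 3.58.1) with sample weights, other filters, only the groups compared, a replicate block, each library left out and both libraries of control mouse 4 left out.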

Additional observations from a re-analysis of the deposited data

Results flagged for a closer look

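Of 44 sets of 4 libraries searched, which hold the CPM of each of the 10 members and the class ratio in each group, 5 had a library that stood apart from its group by Dixon's criterion, which chance alone meets in about 1 of 20. Stab1 was 24.1 CPM in control peri-tumor library 1, against 61.2 to 65.3 CPM in the other 3. Oit3 was 19.2 CPM in TCM peri-tumor library 1, against 26.7 to 27.7 CPM. Cd34 was 3.10 CPM in TCM peri-tumor library 3, against 2.16 to 2.24 CPM. In TCM tumor library 4 Cd34 was 28.5 CPM, against 9.38 to 12.1 CPM, and Plvap was 85.8 CPM, against 52.7 to 56 CPM. The cause of these values was not tested.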

How the results depend on the processing

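Of the counts and levels recomputed under other settings, 224 stayed, 19 grew and 24 shrank past 1.5 times or the threshold and 5 moved. Of the single members' values, 790 kept direction and call, 14 gained and 11 lost a call, and 45 changed sign. Every change of sign was in a member near 0 that was not called. Members called for tumor against peri-tumor tissue stayed at 5 to 6 of 10 in control and 4 to 5 in TCM mice, and Vwf between tumors was called under all settings run. With the mouse or replicate number as a block (replicate block), Fcgr2b in control and Clec4g in TCM mice lost their calls, and genes called for the difference of the tumor effect fell from 165 to 107. Between treatments this block was the replicate number, which joins different animals and is no pairing. No other count of members changed with the block.

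Between treatments in peri-tumor tissue the 0 members called became 1 with a filter of 1 CPM in 4 libraries, 2 with only the groups compared, 3 with limma-voom, 3 with DESeq2, 1 without control mouse 4, and 0 to 3 with a library left out. Genes called there were 2091, and 3349 with limma-voom, 3434 without control mouse 4 and 1101 (without control peri-tumor library 2) to 3228 (without control peri-tumor library 4) with a library left out. In tumors the 1082 genes called became 687 without a filter, 2193 with limma-voom, 1805 with DESeq2, 1877 without control mouse 4, and 404 (without control tumor library 2) to 1250 with a library left out. For the difference of the tumor effect the 165 became 79 without a filter, 603 with limma-voom, 806 with DESeq2, 714 without control mouse 4, and 58 (without TCM tumor library 3) to 665 (without control peri-tumor library 4). The cause was not tested.

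The class ratio on CPM in place of FPKM was 3.40 and 1.43 in control peri-tumor and tumor tissue and 2.53 and 1.59 in TCM mice, since CPM do not divide by length. Against the median in place of the mean of the pan-endothelial genes, the sinusoidal members stood at 1.56 in control peri-tumor tissue.

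Signs changed as follows (log2 fold change). For Stab1 in control tumors against peri-tumor tissue the value was 0.058 with the replicate block, 0.0089 without control mouse 4, 0.037 with limma-voom and -0.28 to 0.077 with a library left out. For Stab2 in TCM mice it was -0.091 to 0.21 with a library left out. Between treatments in peri-tumor tissue, leaving out a library gave -0.42 to 0.17 for Lyve1, -0.13 to 0.23 for Oit3 and -0.18 to 0.079 for Pecam1. Between treatments in tumors, Clec4g was -0.033 with the replicate block, -0.014 with only the groups compared, -0.034 without control mouse 4 and -0.090 with limma-voom, and Stab1 was 0.0036 without control mouse 4. There, leaving out a library gave -0.22 to 0.31 for Clec4g, -0.16 to 0.063 for Stab1, -0.26 to 0.19 for Lyve1, -0.063 to 0.45 for Oit3 and -0.041 to 0.17 for Pecam1. For the difference of the tumor effect Oit3 was -0.028 with the replicate block, and leaving out a library gave -0.22 to 0.37 for Lyve1, -0.13 to 0.39 for Oit3, -0.086 to 0.18 for Plvap and -0.0097 to 0.25 for Pecam1.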
